A study of Mus musculus with 18 samples.

Results

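The genes described here are 56 developmental transcription factor genes of the PAX, LIM, sine oculis, NKX, EMX, OTX, VAX, DLX, BARH, BARX, EN, GBX, EVX, ALX, PITX, PRRX, IRX and MEIS families, all outside the Hox clusters. They were taken by name from the 21896 protein-coding genes of the RefSeq annotation of GRCm38, and every listed chromatin region that overlapped a gene body or lay within 5 kb of it was assigned to that gene. A homeobox encodes the homeodomain, a DNA-binding fold. Pax1 and Pax9 are included although their proteins have a paired domain and no homeodomain, and Pax2, Pax5 and Pax8 keep only part of one.

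CUT&RUN, a method that cuts out DNA next to an antibody-bound histone mark with a tethered nuclease, was applied to single-cell suspensions of mouse epidermis. All animals carried LSL-H3K36M, a construct that is silent until Cre recombinase acts on it and that encodes histone H3 with methionine in place of lysine 36. Krt14-Cre(+); LSL-H3K36M animals, called mutant, had Cre under the promoter of keratin 14, a gene of the basal epidermal layer, and Krt14-Cre(-); LSL-H3K36M animals, called WT, had no Cre. H3K36me2, H3K27me3 and an IgG control were each profiled in 3 mutant and 3 WT animals, 18 libraries in all, and the labels used here give no age or sex.

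H3K27me3 is the mark of Polycomb repressive complex 2, which keeps developmental regulators of other lineages silent, and homeobox genes are among its best-known targets. H3K36me2 marks broad stretches of chromatin, and methylation of lysine 36 hinders Polycomb repressive complex 2 on the same histone tail. H3K36M blocks the enzymes that methylate lysine 36. Most of the genes described here are best known for the formation of brain, eye, kidney, limb, heart or endocrine organs. Those known for roles in skin include Dlx3, needed for hair and epidermal differentiation, Barx2, active in hair follicles, and En1, needed for sweat gland formation.

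The promoters of 6 of these genes are printed because the results below turn on them: Lmx1b had the largest fall in H3K27me3, the Otx2 promoter was the 1 promoter of a member that a called window overlapped, and Pax2, Nkx6-1, Dlx1 and Prrx1 had windows listed for both marks. Each runs 5′ to 3′ on the gene's strand, from 250 bases before to 50 bases after an annotated start, from RefSeq on GRCm38.p6, with CG dinucleotides in capitals.
Lmx1b: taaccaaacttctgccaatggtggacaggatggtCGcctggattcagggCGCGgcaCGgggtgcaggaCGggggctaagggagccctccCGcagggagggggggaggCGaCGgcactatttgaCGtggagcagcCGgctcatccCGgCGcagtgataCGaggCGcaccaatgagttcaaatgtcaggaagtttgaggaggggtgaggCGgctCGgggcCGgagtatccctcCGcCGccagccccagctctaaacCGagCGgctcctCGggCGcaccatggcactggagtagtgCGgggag
Otx2: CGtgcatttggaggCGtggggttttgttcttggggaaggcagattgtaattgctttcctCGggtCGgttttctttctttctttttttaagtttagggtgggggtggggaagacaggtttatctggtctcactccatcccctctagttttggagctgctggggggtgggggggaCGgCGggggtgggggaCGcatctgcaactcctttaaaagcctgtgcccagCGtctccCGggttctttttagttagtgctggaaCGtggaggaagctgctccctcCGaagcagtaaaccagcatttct
Pax2: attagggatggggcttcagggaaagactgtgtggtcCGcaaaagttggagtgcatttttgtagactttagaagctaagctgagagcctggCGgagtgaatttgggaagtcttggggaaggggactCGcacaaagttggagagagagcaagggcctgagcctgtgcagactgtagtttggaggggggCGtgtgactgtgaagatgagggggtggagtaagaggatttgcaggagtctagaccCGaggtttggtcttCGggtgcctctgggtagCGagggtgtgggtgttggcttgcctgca
Nkx6-1: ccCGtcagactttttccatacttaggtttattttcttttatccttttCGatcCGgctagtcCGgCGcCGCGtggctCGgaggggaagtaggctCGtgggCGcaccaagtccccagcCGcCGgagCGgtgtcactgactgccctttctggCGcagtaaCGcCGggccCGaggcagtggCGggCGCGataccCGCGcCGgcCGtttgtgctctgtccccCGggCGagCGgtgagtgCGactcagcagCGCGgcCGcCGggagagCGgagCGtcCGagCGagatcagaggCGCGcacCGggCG
Dlx1: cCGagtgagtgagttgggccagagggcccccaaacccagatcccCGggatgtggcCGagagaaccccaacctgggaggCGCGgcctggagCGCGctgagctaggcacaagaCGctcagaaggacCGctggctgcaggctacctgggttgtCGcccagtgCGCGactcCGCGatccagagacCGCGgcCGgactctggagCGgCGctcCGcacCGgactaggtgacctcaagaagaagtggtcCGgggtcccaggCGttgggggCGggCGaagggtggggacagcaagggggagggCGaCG
Prrx1: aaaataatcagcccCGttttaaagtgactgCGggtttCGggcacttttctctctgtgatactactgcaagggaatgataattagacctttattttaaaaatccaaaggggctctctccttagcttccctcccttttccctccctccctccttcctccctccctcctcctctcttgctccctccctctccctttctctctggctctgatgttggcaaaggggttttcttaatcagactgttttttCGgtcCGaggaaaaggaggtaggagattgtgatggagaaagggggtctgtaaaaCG
These stretches are chr2:33641049-33641348 (minus strand) for Lmx1b, chr14:48662685-48662984 (minus) for Otx2, chr19:44746351-44746650 (plus) for Pax2, chr5:101664662-101664961 (minus) for Nkx6-1, chr2:71529195-71529494 (plus) for Dlx1 and chr1:163313601-163313900 (minus) for Prrx1. CG dinucleotides numbered 40 at Nkx6-1, 27 at Dlx1, 24 at Lmx1b, 11 at Otx2, 7 at Pax2 and 6 at Prrx1. Promoters were in the RefSeq table for 44 of the 56 genes, with 1 start per gene, and their median was 17 CG dinucleotides, against 13 over 17491 protein-coding genes. At least 10 CG dinucleotides were present in 81.8% of the 44 and in 57.2% of all. The letters TAATTA, a core that many homeodomains bind and that reads the same on both strands, were in 4 of the 44 promoters (9.09%), Prrx1 among them, and in 4.67% of all. For Otx2 these counts use another of its starts, at chr14:48667595-48667894, with 6 CG dinucleotides and TAATTA, and not the stretch printed. A match of letters is a description of the sequence and not a binding site.

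The first comparison asked where H3K27me3 differed between mutant and WT epidermis. H3K27me3 fell in at least 1 window at 39 of the 56 genes (69.6%) and rose at none of them. Of all protein-coding genes, 7.43% had a falling window and 2.64% a rising one. A window is a stretch of 401 bp tested by the authors with DiffBind, and it was called at the authors' FDR under 0.05. Over the 18072 windows tested, 15.2% fell and 8.54% rose. Only called windows are listed for H3K27me3, so the count of 0 rising genes has no companion at an unadjusted p. Among the 2167 genes with any called window, 75.1% had a falling one, against 39 of 39 here. The genes were chosen with earlier results of these data known, so their share carries no test.

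The 39 genes held 45 falling windows, 34 in gene bodies and 11 in flanks, and 35 of the genes had a single window. In WT epidermis these windows held 23.9 to 205.5 mean normalised reads, with a median of 118.7. In mutant epidermis the same windows held 9.29 to 86.9, with a median of 55.9. The mutant level was 0.342 to 0.621 of the WT level, with a median of 0.468, and it was under 0.5 of the WT level in 31 of the 45 windows. FDR was under 1e-05 in 25 windows and under 0.001 in 34. Values are means of 3 animals per genotype in the authors' deposited table, with no column per animal, so whether the animals of the genotypes overlap cannot be seen. A standard error of the log2 difference was instead worked back from each deposited p, and it ran from 0.171 to 0.476 with a median of 0.202. Because whole suspensions were profiled, fewer cells carrying the mark and less of the mark per cell cannot be told apart.

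**Figure D1:**
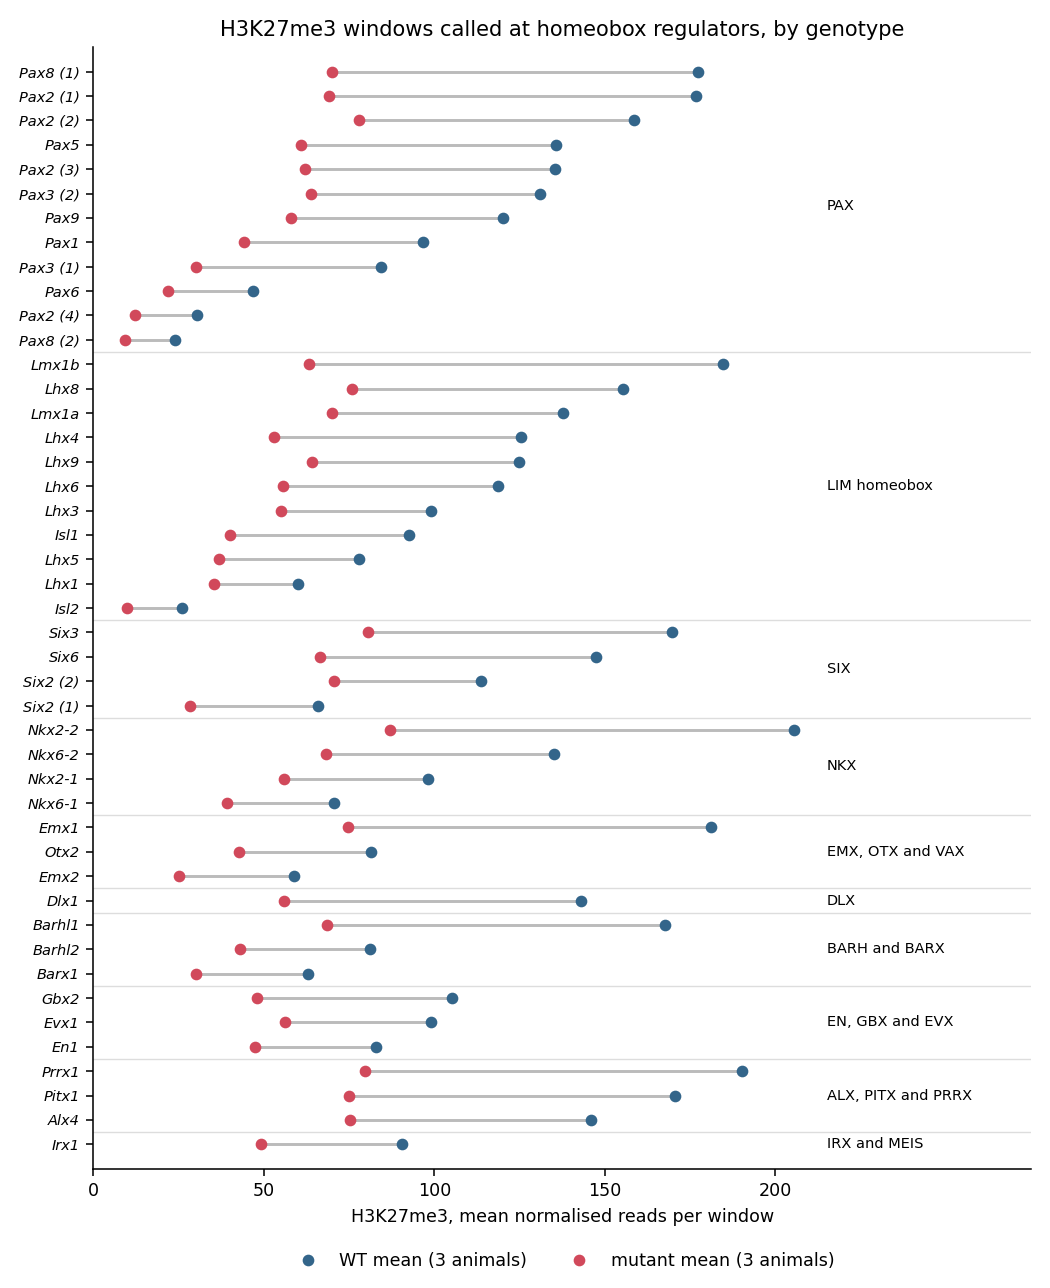
Mean normalised H3K27me3 reads in each called window at the 39 genes, WT in blue and mutant in red, joined by a line. A number in brackets tells windows of 1 gene apart. The mutant mean lies to the left of the WT mean in all 45 windows.

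Many of the windows at these genes were among the called windows with most H3K27me3 in WT epidermis. These genes held 45 of the 4285 called windows, and windows not called could not be ranked. The lowest WT mean at these genes, 23.9, was under the median of all called windows, 29.3. Of the 50 called windows with the highest WT mean, 11 belonged to these genes, and of the highest 500, 29 did. A rank by WT mean favours windows that fell, so direction was read against the mean over all libraries. Among called windows elsewhere with such a mean under 16 reads, 20.5% of 1638 fell. The share was 78.8% of 1086 from 16 to 32 reads and 98.8% of 955 from 32 to 64. At 64 reads or more, all 561 fell, with an exact 95% interval from 99.3% that covers counting error only. The homeobox regulators had 32 windows at 64 reads or more, 10 from 32 to 64, 3 from 16 to 32 and 0 below, and all fell. At 64 reads or more the median log2 difference was -1.11 at these genes and -1.13 elsewhere. From 32 to 64 reads it was -1.07 and -1.22.

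**Figure D2:**
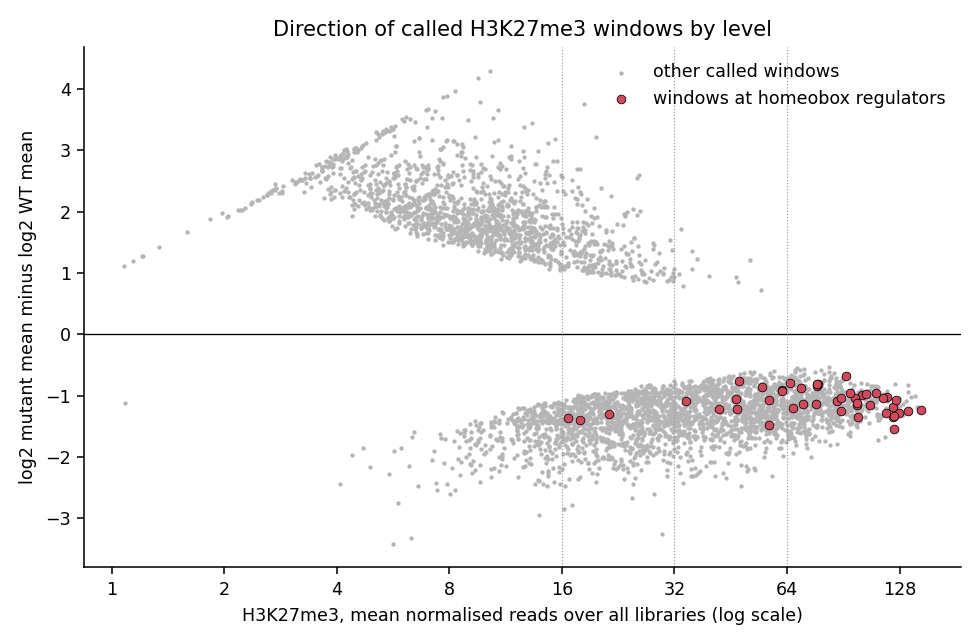
Log2 difference between mutant and WT means against the mean of all libraries (log scale) for called H3K27me3 windows. Windows at the homeobox regulators (red) all lie below 0 and toward the right, where the 561 other windows at 64 reads or more (grey) also lie below 0.

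The LIM homeobox genes, whose proteins pair a homeodomain with protein-binding LIM domains, fell at 11 of 11 members with 1 window each. Lmx1b, which sets the dorsal side of the limb, had 184.7 reads in WT and 63.1 in mutant epidermis at chr2:33631704-33632104, inside the gene body. In the authors' deposited table its log2 fold was -1.50 at an FDR of 3.96e-15, the lowest of all 4285 called windows, in either direction. The log2 difference of its means was -1.55, with an implied 95% interval of -1.89 to -1.21. Its relative Lmx1a, which acts in midbrain dopaminergic neurons, went from 137.6 to 70.1 (log2 fold -0.92, FDR 7.81e-06). The pituitary and motor neuron regulator Lhx4 fell from 125.3 to 52.9 (log2 fold -1.19, FDR 1.06e-08). Lhx3, which acts beside Lhx4 in the pituitary, fell from 98.9 to 54.9 (log2 fold -0.82, FDR 0.000287). Isl2, a motor neuron gene, had the lowest level of the family, 26.0 in WT and 9.82 in mutant epidermis, and a wide implied interval of -2.34 to -0.47. Lhx1, which directs head and kidney formation, had the highest FDR of the 45 windows, 0.0382, at 59.9 reads in WT and 35.5 in mutant epidermis. The remaining 5 members (Lhx5, Lhx6, Lhx8, Lhx9 and Isl1) ranged from 77.7 to 155.3 reads in WT and from 36.8 to 75.9 in mutant epidermis.

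PAX genes, named for the paired DNA-binding domain, fell at 7 of 8 members. Pax2, which acts in kidney, optic stalk and inner ear, had 4 windows, the most of any member. The window before its start, at chr19:44743713-44744113, held 176.7 reads in WT and 69.2 in mutant epidermis (log2 fold -1.29, FDR 1.15e-11). The next 2 windows went from 158.7 to 77.9 and from 135.3 to 62.1, and the last, near the far end of the gene, from 30.5 to 12.3 (FDR 0.00548). All 4 fell although their WT levels differed widely. Pax8, which directs thyroid and kidney formation, fell from 177.2 to 70.0 near its start, at chr2:24473548-24473948 (log2 fold -1.27, FDR 5.83e-11). Its second window was the weakest at any member, with 23.9 reads in WT and 9.29 in mutant epidermis (FDR 0.0104). Pax3, a neural crest and muscle precursor gene, fell from 84.3 to 30.2 in its body, at chr1:78140990-78141390 (log2 fold -1.34, FDR 2.14e-07). In a flank of Pax3 a further window fell from 131.0 to 63.7 (log2 fold -0.97, FDR 2.52e-06). The B lymphocyte gene Pax5 fell from 135.8 to 61.0, and the eye gene Pax6 from 46.7 to 22. Pax1 and Pax9, which act in the skeleton and the pharyngeal pouches, fell from 96.7 to 44.1 and from 120.0 to 58.1. Pax7, the gene of muscle satellite cells, had no called window.

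Genes of the sine oculis family, Six2, Six3 and Six6, act in eye, forebrain and kidney progenitors, and all 3 members fell. Six6, a retina and pituitary gene, had the lowest FDR, 2.49e-07, and went from 147.3 reads in WT to 66.4 in mutant epidermis. Six3, a forebrain gene, fell from 169.8 to 80.5. Six2, which maintains kidney nephron progenitors, had 2 windows, from 65.8 to 28.4 and from 113.7 to 70.7. The second, at chr17:85681713-85682113, was the smallest fall of all members (log2 fold -0.64, FDR 0.00451), with an implied interval of -1.08 to -0.30. That interval does not overlap that of Lmx1b, but the pair are the smallest and largest of the 45 falls, so this is not a test. The implied intervals of 43 of the 45 windows held the members' median log2 difference of -1.10, all but this Six2 window and the window of Lmx1b. For those 43 the size of the fall was not told apart from the members' median.

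NKX genes fell at 4 of 6 members. Nkx2-2, which acts in pancreatic islets and the ventral neural tube, had the highest WT mean of any called window, 205.5, and 86.9 in mutant epidermis (log2 fold -1.16, FDR 6.75e-09) at chr2:147190044-147190444. Nkx6-2 fell from 135.2 to 68.3, and the lung and thyroid gene Nkx2-1 from 98.0 to 55.9. Nkx6-1, a beta cell gene, fell from 70.6 to 39.1 at chr5:101657476-101657876 (log2 fold -0.76, FDR 0.00943). The heart gene Nkx2-5 and the gut and spleen gene Nkx2-3 had no called window.

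Among head and brain regulators, EMX, OTX and VAX genes fell at 3 of 5 members. Emx1, a gene of the cerebral cortex, fell from 181.2 to 74.5 (log2 fold -1.23, FDR 4.87e-11) at chr6:85190426-85190826. Emx2 fell from 58.9 to 25.2 and Otx2 from 81.4 to 42.7 (FDR 0.00112). The Otx2 window at chr14:48662898-48663298 covered 87 bases of the promoter printed above, which belongs to 1 of 4 annotated starts. BARH and BARX genes fell at 3 of 4 members. Barhl1, an inner ear and neuronal gene, went from 167.5 to 68.5 (log2 fold -1.22, FDR 1.06e-10) at chr2:28912005-28912405. Its relative Barhl2 and the stomach and tooth gene Barx1 had 81.1 and 63.1 reads in WT and 43.1 and 30.2 in mutant epidermis. EN, GBX and EVX genes fell at 3 of 5 members. The lowest FDR of these was that of the hindbrain gene Gbx2, 7.29e-07, at 105.3 reads in WT and 48.1 in mutant epidermis. En1 fell from 82.8 to 47.5 and Evx1 from 98.9 to 56.1.

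The skeletal and limb regulators of the ALX, PITX and PRRX group fell at 3 of 3 members. Prrx1, a gene of limb mesenchyme, went from 190.2 to 79.5 (log2 fold -1.18, FDR 1.43e-08) at chr1:163311110-163311510. Pitx1, which gives the hindlimb its identity, fell from 170.4 to 75 (FDR 8.27e-10), and the limb and skull gene Alx4 from 145.8 to 75.3. DLX genes are arranged as neighbouring pairs, and 1 of 5 members had a called window. Dlx1, a gene of forebrain inhibitory neurons, fell from 142.9 to 55.8 (log2 fold -1.27, FDR 8.93e-10) at chr2:71526011-71526411. Of the IRX and MEIS group, 1 of 6 members had one, Irx1, which fell from 90.4 to 49.0 (FDR 0.00193). Families differed in the share of members called, but with 3 to 11 members each no family was set against another by a test. Windows of Dlx1, Lhx1 and Gbx2 also lay within 5 kb of another protein-coding gene, namely Metap1d, Aatf and LOC102637806.

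The called windows lay beside transcription starts more often than on them. Starts with a strand were in the RefSeq promoter table for 39 of the 45 windows, and the distance was taken from window centre to the nearest start. It was within 5 kb for 27 windows (69.2%), 11 upstream and 16 downstream, and within 1 kb for 4 (10.3%). Over 1446 pairs of a falling window and another protein-coding gene, 62.0% were within 5 kb and 26.9% within 1 kb. A window near more than 1 such gene counts once for each. Members had 3 windows beyond 10 kb (7.69%), and other genes had 31.9%. The median distance was 3234 bp at members and 2527.5 bp elsewhere. Between 2 and 10 kb downstream lay 20 of the 39. These shares describe called windows only, and gene length differs between the sets, with a median of 9669.5 bp at the 56 genes and 17149 bp over all.

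**Figure D3:**
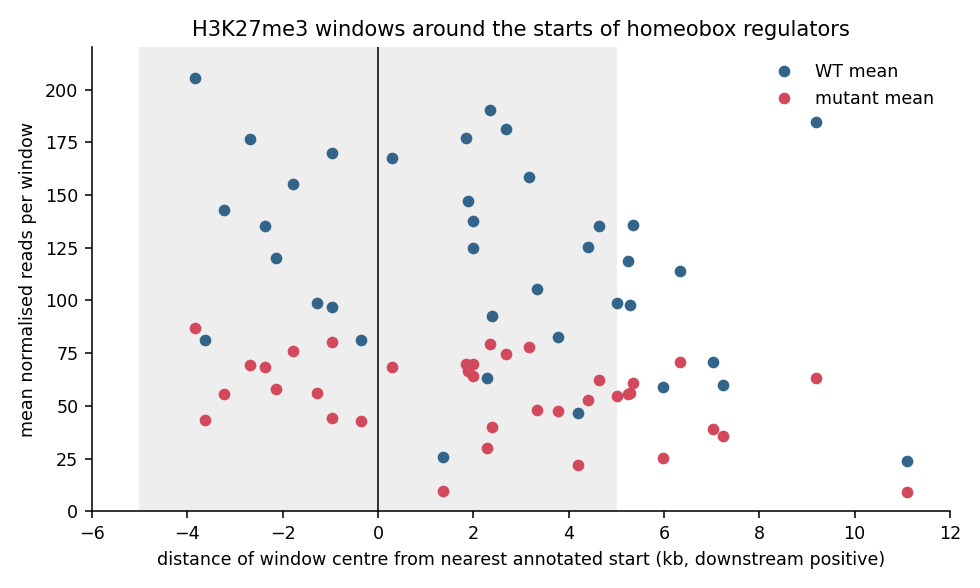
Mean normalised H3K27me3 reads per window against the distance of its centre from the nearest annotated start, downstream positive, with WT in blue and mutant in red and 5 kb on either side shaded. The plot holds 37 of the 39 windows with a start, 2 lying beyond 12 kb, and each mutant point lies below its WT point.

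No H3K27me3 window was called at 17 of the 56 genes: Pax7, Nkx2-3, Nkx2-5, Otx1, Vax1, Dlx2, Dlx3, Dlx5, Dlx6, Barx2, En2, Evx2, Irx2, Irx3, Irx5, Meis1 and Meis2. Windows that were tested and not called are not listed, so these genes may hold the mark without a called change or not hold it. Called windows lay within 50 kb of 12 of the 17, and the nearest one fell at 13 and rose at 4. Of all 4285 called windows, 2742 fell and 1543 rose. How often a called window lies within 50 kb of other genes was not measured. The optic stalk gene Vax1 had a falling window 23776 bp away, at 181.7 reads in WT and 85.4 in mutant epidermis. Nkx2-5 had one 8429 bp away that fell from 134.4 to 63.3, and Nkx2-3 one 11963 bp away that fell from 139.5 to 74.0. The window nearest Dlx2 was that of Dlx1, 16997 bp away, and the window nearest Evx2 lay at Hoxd13. Near Meis1, which encodes a partner of HOX proteins, 1 window fell from 71.7 to 40.6 at 6593 bp (FDR 0.00752) and another rose from 11.8 to 26.0 at 8625 bp (FDR 0.0252). That was the closest rising window to any member. For the other 55 genes it was more than 50 kb away, and the median over all 56 was 588714 bp. The distance to a rising window was not measured for other genes, so these values cannot show whether it is unusual.

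H3K36me2, whose enzymes H3K36M blocks, was compared next. Broad regions of H3K36me2 called by the authors with SICER2, termed islands, were found at 3 of the 56 genes (5.36%), Barx2, Meis1 and Meis2. All 3 lacked a called H3K27me3 window, as did 17 of the 56, and 9.90% of all protein-coding genes had one. With 3 genes, no relation between the marks was tested. Their lengths are 67242, 139224 and 206274 bp. Median length was 9669.5 bp over the 56 and 17149 bp over all genes, and the shares given here are not adjusted for length. All 4 islands were lower in the mutant at the authors' FDR under 0.05, and none was higher. Islands lay at 20.5% of all protein-coding genes, lower ones at 12.2% and higher ones at 7.13%. Of genes with an island, 59.3% had a lower one. Of all 13409 islands, 58.1% were lower and 17.3% higher. Each island has 1 read count per genotype, so its test compares pools of reads and not animals. Pooled depths, worked back from the deposited read counts and depth-scaled counts (RPM), were 59539924 mutant and 47361190 WT reads. Of these reads, islands held 5.71% in mutant and 6.58% in WT epidermis.

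Meis2, a partner of HOX proteins as Meis1 is, had 92 mutant and 106 WT reads in an island at chr2:115969401-115972400. Its deposited fold was 0.691 (FDR 0.000308), with an exact binomial 95% interval of 0.516 to 0.922 for the depth-scaled ratio. At Meis1, 200 mutant and 196 WT reads gave a fold of 0.812 (FDR 0.00411, interval 0.663 to 0.994). Barx2 had 158 mutant and 147 WT reads in 1 island (fold 0.855, FDR 0.0486, interval 0.679 to 1.08). In the other it had 162 and 154 (fold 0.837, FDR 0.0247, interval 0.667 to 1.05). Both Barx2 intervals include 1. The median fold of all islands was 0.814, and when that median served as the reference none of the 4 was called by a binomial test, with adjusted p from 0.366 at Meis2 to 1 at Meis1. The intervals cover counting error only and not spread between animals, whose reads were pooled. PCR copies, if kept, are not independent molecules and would make the intervals too narrow.

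Islands were far from most of the genes. The nearest lay a median of 212222 bp from the 56 genes and 77319 bp from other protein-coding genes. An island was within 50 kb of 10 of the 56 (17.9%) and of 41.6% of other genes. The 14 islands within 50 kb comprised 9 lower, 3 higher and 2 called in neither direction. The median distance was 251362 bp for genes with a falling H3K27me3 window and 103005 bp for those without.

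DiffBind also tested H3K36me2 in the 18072 windows, and 0.0% of them passed an FDR of 0.05, at members or elsewhere. At an unadjusted p under 0.05, 730 windows (4.04%) were listed, 2.81% lower and 1.23% higher in the mutant. A lower window was present at 1.09% of protein-coding genes and a higher one at 0.818%. Members had 5 such windows, 4 higher and 1 lower, each with an FDR of 0.9996, so none passed the test. Dlx1 had 2.81 reads in WT and 10.2 in mutant epidermis (p = 0.00556 by the authors' DiffBind). At Pax2 the values were 1.72 and 6.39 (p = 0.0194 by the authors' DiffBind). Prrx1 had 2.97 and 6.83 reads (p = 0.0481 by the authors' DiffBind). Nkx6-1 had a WT mean at the table's floor of 1 read and a mutant mean of 2.93 (p = 0.0392 by the authors' DiffBind). Meis2 was the lower one, from 9.67 to 4.02 (p = 0.0458 by the authors' DiffBind), outside its island. The deposited log2 folds of these windows, which are shrunken, were close to 0, from 0.00395 at Dlx1 to -0.00248 at Meis2, with 0.00257 at Prrx1, 0.00244 at Pax2 and 0.00135 at Nkx6-1. All 5 hold few reads beside the 23.9 or more that H3K27me3 had in WT windows.

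The 4 windows higher in H3K36me2 were the same stretches of DNA that fell in H3K27me3 at those genes. Across the genome 214 windows were listed for both marks. H3K36me2 was higher where H3K27me3 fell in 77 of them and lower where it rose in 88. In 38 H3K36me2 was lower where H3K27me3 fell, and in 11 it was higher where H3K27me3 rose. Of the members' 45 falling windows 4 (8.89%) were also listed as higher in H3K36me2, against 73 of 2697 falling windows elsewhere (2.71%). With 4 windows at nominal p, these shares are given as a description.

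**Figure D4:**
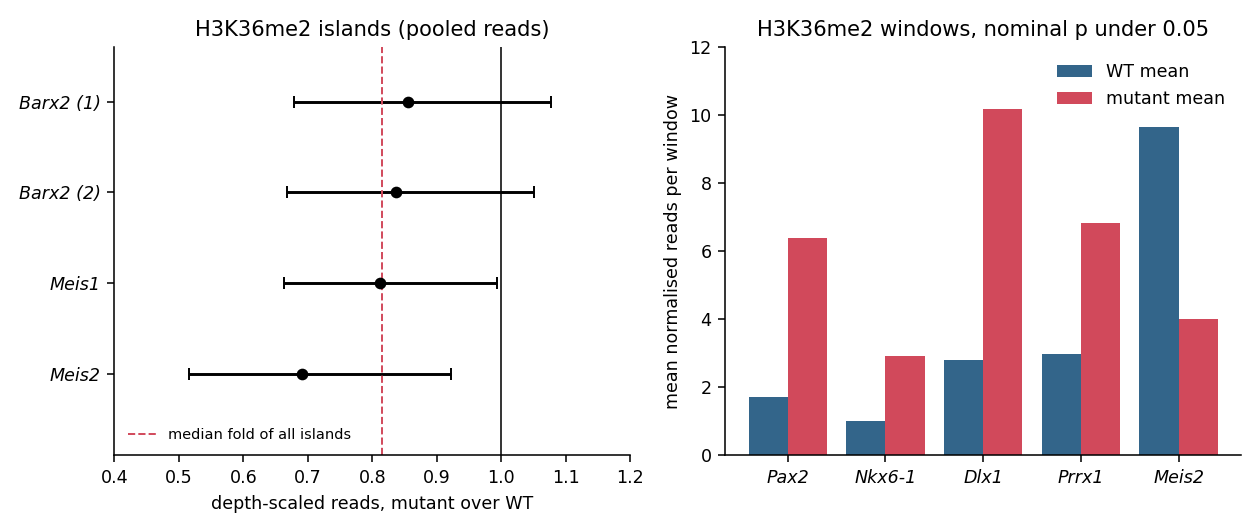
H3K36me2 at the homeobox regulators. Left, mutant over WT ratio of depth-scaled reads in the 4 islands with exact binomial 95% intervals, the dashed line marking the median fold of all islands, 0.814. Right, mean normalised reads per genotype in the 5 DiffBind windows listed at an unadjusted p under 0.05, with the mutant mean above the WT mean in 4.

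Related gene lists were read the same way. Of 112 other homeobox genes outside the Hox clusters, H3K27me3 fell at 54 and rose at 3, Pou5f1, Zhx1 and Zhx2. Their falling windows had a median WT mean of 96.6 and a median log2 difference of -1.15, against 118.7 and -1.10 at the 56 genes and 51.6 and -1.28 over all falling windows. The limb and tooth gene Msx1 fell from 95.3 to 28.2 (log2 fold -1.58, FDR 1.28e-09). Hair follicle regulator Lhx2 had a window that fell from 98.0 to 31.2 (log2 fold -1.50, FDR 1.43e-09). Of 39 Hox genes, 3 had a falling window (Hoxa11, Hoxd3 and Hoxd13) and none a rising one. Of 33 genes for Polycomb subunits and H3K27 demethylases, none had a falling window and 2, Phc2 and Pcgf5, a rising one. H3K36me2 islands were lower at 10 and higher at 7 of the other homeobox genes. They were lower at 1 and higher at 3 of the Hox genes, and lower at 3 and higher at 2 of the Polycomb list. Over all protein-coding genes the shares were 12.2% lower and 7.13% higher. The 3 Hox genes with a higher island, Hoxb3, Hoxb5 and Hoxb6, had the same counts, 164 mutant and 106 WT reads. They were therefore read as 1 island near 3 genes.

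**Figure D5:**
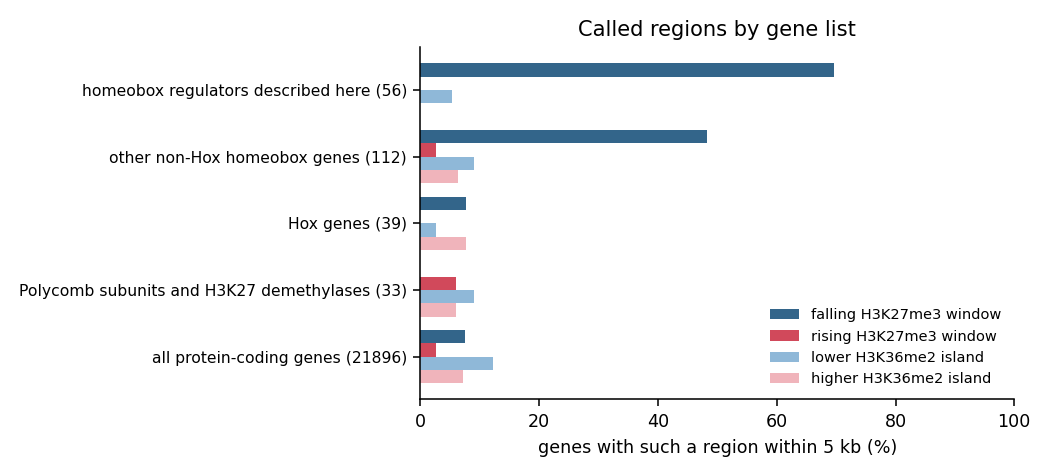
Percent of genes in each list with a falling or rising H3K27me3 window, or a lower or higher H3K36me2 island, within 5 kb, with the number of genes in brackets. The bar for falling H3K27me3 is at 69.6% for the 56 homeobox regulators, 48.2% for the other homeobox genes and 7.43% for all genes. Marker lists are not drawn.

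Chromatin marks report cell type only indirectly, and marker lists were read as a description. Listed H3K27me3 windows are those that differed between genotypes, so these counts cannot show whether the label of epidermis is right. Of 11 basal epidermal markers, none had a falling H3K27me3 window and 3 (Trp63, Itga6 and Dst) a rising one, and at Trp63 the level went from 2.52 in WT to 34.2 in mutant epidermis. H3K36me2 islands lay at 9 of the 11, with a lower one at 4 and a higher one at 5, Trp63 having both. Islands also lay at 3 of 4 endothelial, 3 of 7 melanocyte, 2 of 7 differentiated epidermal and 1 of 6 immune markers. None lay at the dermal fibroblast or Merkel cell markers, and 20.5% of all protein-coding genes had one. Median gene length was 33688 bp for the basal list, 97400.5 bp for the endothelial list and 17149 bp over all. The Krt14 island held 57 mutant and 16 WT reads (deposited fold 2.71), and the Krt15 island 209 and 221 (deposited fold 0.752). The Krt14 counts are low beside the medians over all islands, 170 mutant and 165 WT reads. The share of cells of each type is not known from these tables. Of 7 differentiated epidermal markers, 1 (Lor) had a rising window and none a falling one. Falling windows were found at 3 of 7 dermal fibroblast markers (Pdgfra, Dcn and Twist2), at 3 of 4 Merkel cell markers (Atoh1, Piezo2 and Sox2) and at 1 of 7 melanocyte markers (Kit). Of 4 endothelial markers 2 had a rising window, and of 6 immune markers none was called in either direction. The part of a change in cell types in the falls at the homeobox regulators was not tested.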

How the data were processed

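Mouse epidermis gave CUT&RUN libraries with paired-end reads of 37 bp, according to the labels' protocols, in 6 groups of 3 (IgG, H3K36me2 and H3K27me3 in mutant and WT animals). Bowtie2, DiffBind, DESeq2, SICER and the builds GRCm38 and mm10 are named without versions, per the submitters' processing notes. The sources used here do not state read scaling in DiffBind, duplicate handling or the way libraries were pooled for SICER2. The authors deposited 3 tables of comparisons without a column per library, so depth per library and spread between animals are unknown and no test across animals could be made. IgG libraries were not analysed here.

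The authors deposited, per the file headers, log2 mean normalised reads per genotype, a shrunken log2 fold (mutant over WT), p-values and FDR for DiffBind windows of 401 bp. The ratio of FDR to p gave 18072 windows tested for each mark. For SICER2 islands they deposited read counts per genotype, RPM values, a ratio of depth-scaled counts as fold, and, for each direction, p-values with FDR, per the file headers. The means were converted from log2. Implied standard errors are the log2 difference divided by the normal deviate of the deposited p, which assumes a Wald test. Island ratios carry exact binomial 95% intervals.

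Genes, 21896 protein-coding, came from RefSeq on GRCm38.p6, with 5 kb flanks. Calls are at FDR 0.05, by the authors' tests. Members named by rule were the 10 with the largest called fall by deposited fold and the 5 with most called windows (a tie at 1 window leaves 4 with more than that). So were the lowest FDR of each family of at least 3, and every member with a rising window, an island or a listed H3K36me2 window. Both genotype means, or read counts for islands, are given for each, and fold, FDR and position for some only. Other genes named with values (Msx1, Lhx2, Trp63, Krt14, Krt15 and further members) were chosen after their values were seen. Members, lists and rules were chosen with earlier results of these data known. Python 3.11.15, pandas 2.3.3, numpy 2.4.6, scipy 1.17.1 and matplotlib 3.10.9 were used, and the region-to-gene step was checked on simulated data. Alternatives were FDR 0.01 and 0.001, gene bodies only, 10 kb flanks, window centres, members near another homeobox gene left out, the deposited fold, and 2 binomial scalings of the islands.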

Additional observations from a re-analysis of the deposited data

How the results depend on the processing

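The number of genes with a falling H3K27me3 window stayed between 30 (gene bodies only) and 44 (10 kb flanks) of 56, against 39. Over all protein-coding genes the share was 5.70% with gene bodies only and 8.63% with 10 kb flanks, against 7.43%. The median log2 difference at members stayed between -1.13 and -1.04. The number of members with a rising window was 0 except with 10 kb flanks, where it was 1, Meis1. With 10 kb flanks 3.54% of all protein-coding genes had a rising window. Genes with a lower H3K36me2 island went from 3 to 1 at FDR 0.001, to 1 with a binomial test at the deposited scaling, and to 0 with a binomial test scaled to the median fold, so these calls rest on the scaling and the test. Genes with a listed H3K36me2 window went from 5 to 1 at an unadjusted p under 0.01 and to 3 with gene bodies only. Of 40 alternatives run, 34 kept the result on its side, 6 moved it and 0 reversed it. Stricter cut-offs and gene bodies only can do no more than remove called regions, so under them a reversal could not occur. Leaving out each animal could not be run, since no table has a column per library. No paired analysis was possible because the tables hold genotype means or pools and no animal belongs to both genotypes. Whether H3K27me3 falls are relative to the authors' scaling, which was not given, cannot be seen, since windows not called are not listed and no other centring could be tried.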
